A study of Mus musculus with 11 samples.

Results

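The genes described here are 10 members of the fibroblast growth factor (FGF) pathway: the kinase receptors Fgfr1, Fgfr2 and Fgfr3, the receptor without a kinase domain Fgfrl1, the ligands Fgf1, Fgf2, Fgf9 and Fgf18, and the Sprouty genes Spry2 and Spry4. They were listed by name, with earlier results of these data known. They are 10 of the 55421 genes in the count files and 10 of the 18125 genes that passed the filter on low counts. All 10 passed. Their RNA was measured by bulk sequencing of articular cartilage cut with a scalpel from the knees of C57BL/6 mice aged 14 weeks. Surgery 4 weeks earlier had destabilized the medial meniscus of 1 knee (DMM), a widely used model of osteoarthritis. The groups were 4 DMM knees of c-FosDCh mice, 3 DMM knees of c-FosWT mice and 4 contralateral, unoperated knees of c-FosWT mice. The label c-FosDCh was taken to mean loss of Fos in chondrocytes; which Cre line was used is not given in these sources. The 11 libraries came from 8 animals, because 3 c-FosWT mice gave both knees. Contralateral knees of c-FosDCh mice were not analysed here, and surgery was therefore not tested within that genotype.

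FGFs are secreted proteins that bind heparan sulfate and cell-surface receptor tyrosine kinases. A bound receptor phosphorylates the adaptor FRS2 and activates the RAS and ERK cascade, phospholipase C gamma and PI3 kinase, and the signal induces its own brakes, among them the Sprouty proteins. In cartilage, FGFR3 restrains chondrocyte proliferation, FGF18 is a ligand with anabolic action on articular cartilage, and FGF2 is stored in the pericellular matrix and released when the tissue is loaded or cut. FGFR1 signalling in articular chondrocytes has been tied to matrix loss.

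The sequences just before the starts of 3 of the genes are shown. Fgf18 and Fgfrl1 passed the test between the DMM groups and Spry2 did not. RefSeq promoter entries on GRCm38.p6 were found for 7 of the 10 genes, as 8 entries. The stretch shown for Fgfrl1 lies inside the annotated span of the gene, chr5:108692382-108706924. Each sequence below gives the 250 bases before the start site, 5′ to 3′ on the strand of the gene, and capitals mark the letters CCGGAAGT, the core of an ETS factor motif. They lie at chr11:33147401-33147650 (minus strand) for Fgf18, chr5:108693979-108694228 (plus strand) for Fgfrl1 and chr14:105896820-105897069 (minus strand) for Spry2, and none overlaps an annotated exon.
Fgf18: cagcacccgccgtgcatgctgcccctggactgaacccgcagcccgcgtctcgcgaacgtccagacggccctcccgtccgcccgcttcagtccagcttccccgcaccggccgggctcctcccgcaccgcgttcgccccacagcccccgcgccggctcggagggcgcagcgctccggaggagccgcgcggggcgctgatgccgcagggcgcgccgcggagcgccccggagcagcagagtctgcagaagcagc
Fgfrl1: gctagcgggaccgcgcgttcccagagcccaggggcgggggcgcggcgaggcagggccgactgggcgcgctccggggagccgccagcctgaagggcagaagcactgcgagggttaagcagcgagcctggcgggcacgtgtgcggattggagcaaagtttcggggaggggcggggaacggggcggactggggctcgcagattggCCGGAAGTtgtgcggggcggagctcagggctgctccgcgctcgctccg
Spry2: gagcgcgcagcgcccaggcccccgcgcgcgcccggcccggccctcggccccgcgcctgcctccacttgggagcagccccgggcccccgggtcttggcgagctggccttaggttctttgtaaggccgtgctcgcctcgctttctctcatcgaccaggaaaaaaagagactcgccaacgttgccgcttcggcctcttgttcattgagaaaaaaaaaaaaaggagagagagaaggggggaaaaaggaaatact
On either strand of the full 300-base entries, CCGGAAGT occurred in 1 of the 8 entries, that of Fgfrl1, and in 3.89% of 32851 mouse promoters. The AP-1 letters TGANTCA occurred in 0 of the 8 and in 7.81% of all promoters, and the CRE letters TGACGTCA occurred in 0 of the 8 and in 1.79%. The upstream stretches of Fgf18, Fgfrl1 and Spry2 held 37, 30 and 23 CpG dinucleotides. These matches describe letters in short windows and not binding.

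Levels are given as CPM, the count scaled to the TMM-adjusted library total, and levels of different genes are compared only as CPM per kilobase of exon. Gene counts per library ranged from 13593454 to 18280558. The cartilage markers Acan and Col2a1 were present in every library. Acan, the main cartilage proteoglycan, ranged from 3630 to 9678 CPM in c-FosDCh DMM and from 473.7 to 1774 CPM in c-FosWT DMM. In contralateral libraries it ranged from 2338 to 3531 CPM. Col2a1, the main cartilage collagen, was at least 2329 CPM throughout. Not every marker on the cartilage list was high: Matn3 ranged from 0.073 to 4.07 CPM in c-FosDCh DMM and from 21.5 to 95.1 CPM in c-FosWT DMM. Blood-forming tissue was present too. The 15 tested erythroid markers summed to 650 to 5069 CPM in c-FosDCh DMM, 8902 to 14370 CPM in c-FosWT DMM and 2605 to 7653 CPM in contralateral libraries. The 20 granulocyte markers summed to 540.1 to 12470, 9174 to 16240 and 4112 to 11750 CPM in c-FosDCh DMM, c-FosWT DMM and contralateral libraries. The 15 skeletal muscle markers reached 26440 CPM in c-FosWT DMM replicate 1 and 16810 CPM in contralateral replicate 2. Fos itself averaged 23.2 CPM in c-FosDCh DMM, 11.7 CPM in c-FosWT DMM and 19.9 CPM in contralateral libraries and did not pass the test between the DMM groups (log2 difference 0.98, edgeR adjusted p 0.0736). The mean was thus not lower in c-FosDCh DMM, the group labelled for loss of Fos. A deletion of part of a gene need not show in its total count, and the genotype label was not tested further.

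Between the DMM knees, 8 of the 10 FGF genes were higher in c-FosDCh than in c-FosWT cartilage. Fgf2 had the highest fold of the 10 at 7.4, then Fgf18 at 4.6 and Fgf1 at 2.98, while the receptors and Spry4 were 1.98-fold to 2.4-fold higher. Fgf9 and Spry2 did not pass the test. The test was edgeR's quasi-likelihood test across all genes with a Benjamini-Hochberg adjusted p under 0.05. Of all 18125 genes, 14.4% passed in this comparison, 10.6% as higher and 3.79% as lower in c-FosDCh DMM, against 8 of 10 higher and 0 of 10 lower among the FGF genes. DESeq2 and limma-voom called the same 8 genes as higher, where DESeq2 called 29.6% of all genes, 16.4% as higher and 13.2% as lower, and limma-voom 19.3%, 11.1% as higher and 8.2% as lower. The median log2 difference of the 10 was 1.17, and that of all genes was -0.01. The same 8 genes had no overlap between the groups, every c-FosDCh DMM library lying above every c-FosWT DMM library, which held for 17.2% of all genes. In the same libraries 12 of 25 cartilage markers were higher and 0 lower in c-FosDCh DMM, while 7 of 15 erythroid markers were lower and 0 higher. Of the other marrow markers, 0 of 20 granulocyte and 0 of 10 B cell genes passed in either direction. Of 8 osteoclast markers 4 were lower and 0 higher. Some cartilage markers that did not pass had lower values in c-FosDCh DMM, as Matn3 at -5.04 and Matn1 at -2.97 (log2, edgeR adjusted p 0.0628 and 0.0867). The part of these markers in the FGF differences was not tested beyond the fits with a tissue score given below. In bulk RNA, a smaller share of cells of a type and less RNA per cell cannot be told apart.

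**Figure D1:**
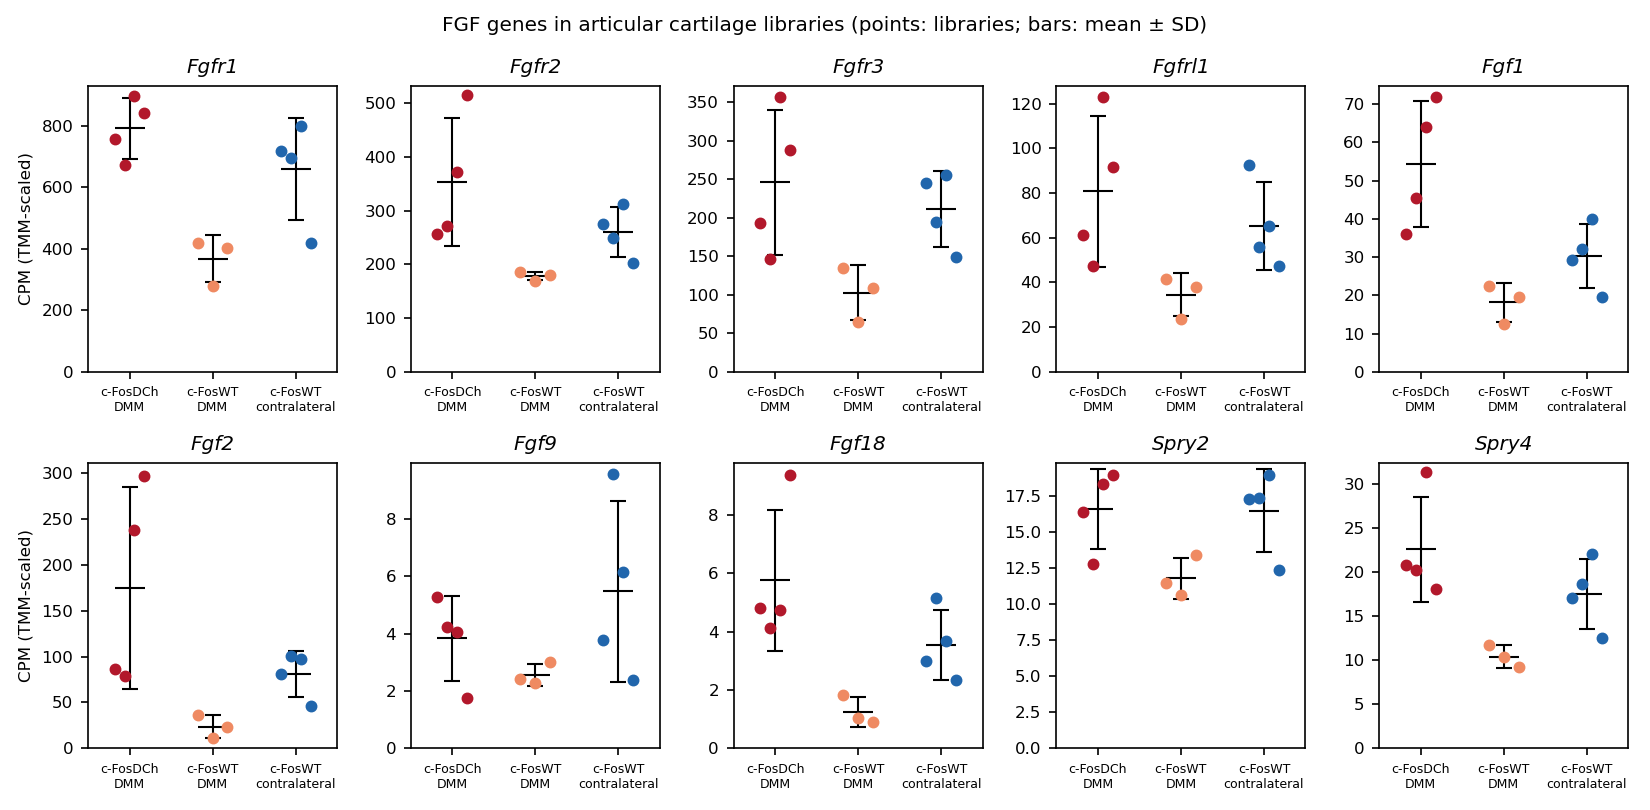
CPM of each FGF gene (vertical axis, from 0) in the 4 c-FosDCh DMM, 3 c-FosWT DMM and 4 c-FosWT contralateral libraries; points are libraries and bars are mean ± SD. For 8 genes every c-FosDCh DMM point lies above every c-FosWT DMM point; for Fgf9 and Spry2 the points overlap.

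Fgfr1 (chr8:25513654-25575718, plus strand, GRCm38) had the highest level per kilobase of the 10 genes. It was at 759.3, 672.3, 899.3 and 842 CPM in c-FosDCh DMM replicates 1 to 4, against 420, 279.5 and 404 CPM in c-FosWT DMM replicates 1 to 3. The lowest c-FosDCh library was well above the highest c-FosWT DMM library. The difference was 1.11 ± 0.24 (log2, SE; edgeR adjusted p 0.0332). Contralateral libraries held 719.7, 694.8, 801.4 and 419 CPM, so replicates 1 to 3 lay within the c-FosDCh DMM range and replicate 4 was level with c-FosWT DMM. An antisense gene shares 164 of the 9875 exon bases of Fgfr1.

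Fgfr2 (chr7:130162451-133123350, minus strand), best known in bone-forming cells and epithelia, was at 255.8, 271.1, 371 and 514.6 CPM in c-FosDCh DMM, against 185.2, 169.8 and 180.7 CPM in c-FosWT DMM. The c-FosWT DMM libraries were nearly level, and the c-FosDCh libraries were spread, with replicate 4 at the top. The difference was 0.98 ± 0.24 (log2, SE; edgeR adjusted p 0.0353). Contralateral knees held 275.5, 248.2, 312.6 and 202.6 CPM, all above the c-FosWT DMM knees. The annotated span of Fgfr2 extends well past the stretch before its start in the promoter entry, chr7:130266809-130267058. Ctbp2, a gene on the same strand, shares 314 of the 10328 exon bases of Fgfr2. It averaged 35.25 CPM in c-FosDCh DMM and 33.53 CPM in c-FosWT DMM.

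Fgfr3 (chr5:33721674-33737068, plus strand), the receptor whose activating mutations cause achondroplasia in people, was at 193.7, 145.9, 356.2 and 288.2 CPM in c-FosDCh DMM, against 135.2, 64.2 and 108.1 CPM in c-FosWT DMM. Replicates 3 and 4 of c-FosDCh DMM were high, and replicate 2 was close to the highest c-FosWT DMM library. The difference was 1.26 ± 0.35 (log2, SE; edgeR adjusted p 0.0427). Contralateral knees held 245.2, 193.9, 255.1 and 149 CPM. A gene on the other strand, G630022F23Rik, shares 998 of its 7158 exon bases and was itself below 1 CPM on average in both DMM groups.

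Fgfrl1 (chr5:108692382-108706924, plus strand), which binds ligand and heparin but carries no kinase, was at 61.2, 47.1, 122.9 and 91.8 CPM in c-FosDCh DMM, against 41.6, 23.7 and 38.2 CPM in c-FosWT DMM. The groups did not overlap, with c-FosDCh DMM replicate 2 next to the c-FosWT DMM range. The difference was 1.23 ± 0.36 (log2, SE; edgeR adjusted p 0.0468), the adjusted p nearest to the threshold among the 8 genes that passed. Contralateral knees held 92.4, 55.8, 65.4 and 47.4 CPM.

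Of the ligands, Fgf2 (chr3:37348346-37410108, plus strand) varied most. It was at 85.9, 78.5, 238.1 and 297.2 CPM in c-FosDCh DMM, against 36.1, 11.4 and 23.5 CPM in c-FosWT DMM. Replicates 3 and 4 of c-FosDCh DMM were far above replicates 1 and 2, and all of them were above c-FosWT DMM. The difference was 2.89 ± 0.59 (log2, SE; edgeR adjusted p 0.0332), and the highest library held 26.1 times the lowest, the widest span of the 10 genes. Contralateral knees held 81.3, 100.5, 96.9 and 45.9 CPM. Nudt6, a gene on the other strand that shares 640 of the 6782 exon bases of Fgf2, averaged 3.79 CPM in c-FosDCh DMM and 2.98 CPM in c-FosWT DMM (log2 difference 0.35, edgeR adjusted p 0.308).

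Fgf18 (chr11:33117430-33147400, minus strand), a ligand of FGFR3, was rare. It was at 4.82, 4.13, 4.75 and 9.37 CPM in c-FosDCh DMM, against 1.815, 1.03 and 0.89 CPM in c-FosWT DMM. These levels rest on 66 to 118 counts a library in c-FosDCh DMM and on 16 to 31 in c-FosWT DMM. Replicate 4 of c-FosDCh DMM stood above the other c-FosDCh libraries, which were close together and still clear of c-FosWT DMM. The difference was 2.202 ± 0.41 (log2, SE; edgeR adjusted p 0.0332). Contralateral knees held 3.01, 5.14, 3.70 and 2.34 CPM, above all c-FosWT DMM knees.

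Fgf1 (chr18:38838673-38929472, minus strand), a ligand without a secretion signal that binds all FGF receptors, was at 36.1, 45.5, 64.0 and 71.8 CPM in c-FosDCh DMM, against 22.5, 12.5 and 19.6 CPM in c-FosWT DMM. The groups were well apart. The difference was 1.58 ± 0.32 (log2, SE; edgeR adjusted p 0.0332). Contralateral knees held 29.3, 32.1, 39.9 and 19.6 CPM and overlapped both DMM groups.

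Fgf9 (chr14:58070547-58112720, plus strand), a ligand that acts in skeletal growth, did not follow the other 9 genes over all 11 libraries. Its levels in c-FosDCh DMM rest on 22 to 73 counts a library. It was at 5.26, 4.24, 4.07 and 1.75 CPM in c-FosDCh DMM, against 2.40, 2.29 and 3.00 CPM in c-FosWT DMM. Replicate 4 of c-FosDCh DMM was the lowest of all 11 libraries for Fgf9 while it was the highest for Fgfr2, Fgf1, Fgf2 and Fgf18. The difference was 0.58 ± 0.47 (log2, SE; edgeR adjusted p 0.364). Contralateral knees ranged from 2.39 to 9.57 CPM, on 45 to 134 counts a library.

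The Sprouty genes encode feedback inhibitors that FGF signalling induces. Spry4 (chr18:38586247-38601415, minus strand) was at 20.7, 20.2, 31.3 and 18.03 CPM in c-FosDCh DMM, against 11.7, 10.3 and 9.18 CPM in c-FosWT DMM. The groups did not overlap, and the difference was 1.12 ± 0.23 (log2, SE; edgeR adjusted p 0.0332). Spry2 (chr14:105891947-105896819, minus strand) was at 16.4, 12.7, 18.3 and 18.9 CPM in c-FosDCh DMM, against 11.4, 10.6 and 13.4 CPM in c-FosWT DMM. Replicate 2 of c-FosDCh DMM lay below the highest c-FosWT DMM library. The difference of Spry2 was 0.49 ± 0.19 (log2, SE; edgeR adjusted p 0.0841), the lowest log2 difference of the 10 genes, and Spry2 also had the narrowest span over the libraries, with its highest library at 1.79 times its lowest. Contralateral knees held 12.5 to 22.01 CPM of Spry4 and 12.3 to 18.9 CPM of Spry2.

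The 8 calls depend on which libraries and terms enter the fit. When the marrow, cartilage or muscle score was a covariate, with only the DMM groups, without c-FosDCh DMM replicates 3 and 4, or without the 2 muscle-rich libraries, 0 of the 10 genes passed and 0 of the 18125 genes tested passed either. The 10 log2 differences stayed positive in each of these fits. With the marrow score in the model, the log2 difference of Fgf2 was 1.48, of Fgf18 1.39, of Spry4 0.98, of Fgf1 0.93, of Fgfr1 0.81, of Fgfrl1 0.72, of Fgfr3 0.67 and of Fgfr2 0.35 (edgeR adjusted p 0.365 to 0.577 for these 8). With the cartilage score, the difference of Fgf2 was 1.72, of Fgf18 1.82, of Fgf1 1.057, of Spry4 0.99, of Fgfr1 0.84, of Fgfr2 0.62, of Fgfr3 0.54 and of Fgfrl1 0.48 (edgeR adjusted p 0.345 to 0.477). With the muscle score, the difference was 3.04 for Fgf2, 2.44 for Fgf18 and 1.6 for Fgf1. It was 1.23 for Fgfr3, 1.18 for Fgfrl1, 1.11 for Spry4, 1.09 for Fgfr1 and 0.95 for Fgfr2. The edgeR adjusted p ran from 0.0555 to 0.082 for these 8. The marrow score averages erythroid and granulocyte markers as log2 CPM. It was 6.12 ± 1.65 in c-FosDCh DMM and 8.21 ± 0.36 in c-FosWT DMM (SD), with no overlap. The cartilage score, built likewise from 25 cartilage markers, was 8.32 ± 0.59 in c-FosDCh DMM and 7.33 ± 0.88 in c-FosWT DMM, with overlap.

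In c-FosWT cartilage the 10 FGF genes all had lower values in DMM than in contralateral knees, and none passed the test. The log2 differences ran from -1.78 for Fgf2 and -1.50 for Fgf18 to -0.48 for Spry2, with a median of -0.88 against -0.01 for all genes. edgeR called 0% of the 18125 genes in this comparison, with adjusted p of 0.182 to 0.246 for the 10. At an unadjusted p under 0.05 all 10 were lower, a level that 19.9% of all genes reached, 12.7% as lower. limma-voom called 0 of all genes. DESeq2 called 902, or 4.98%, with 2.94% as lower, among them 3 of the 10 as lower, Fgfr1, Fgf2 and Fgf18, with adjusted p of 0.0275, 0.0312 and 0.0226. For 6 genes, Fgfr2, Fgfr3, Fgfrl1, Fgf2, Fgf18 and Spry4, every DMM library lay below every contralateral library, which held for 13.1% of all genes.

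Within the 3 animals that gave both knees, the DMM knee held less than the contralateral knee in 3 of 3 pairs for Fgfr1, Fgfr2, Fgfr3, Fgfrl1, Fgf2, Fgf18 and Spry4, and in 2 of 3 for Fgf1, Fgf9 and Spry2. The pairs were unlike in size. For Fgf2 the log2 difference within a pair was -1.17, -3.13 and -0.96, and for Fgfr3 it was -0.86, -1.59 and -0.46. The middle value in each case is the animal whose DMM library had the lowest cartilage score of all, 6.41. In the same pairs the DMM knee had a lower cartilage score in 3 of 3, with differences of -0.36, -1.59 and -0.95, and a higher marrow score in 3 of 3, with differences of 0.77, 1.77 and 0.66. The fits with the marrow or cartilage score in the model, over all 11 libraries, gave smaller differences between c-FosWT DMM and contralateral knees for the genes other than Fgf9. Fgf9 was at -1.29 with the marrow score and -1.45 with the cartilage score. With the marrow score, the log2 difference of Fgf2 was -0.997, of Fgfr3 -0.69, of Fgf1 -0.33, of Spry2 -0.29 and of Fgfr2 -0.18. With the cartilage score that of Fgf2 was -0.89, of Fgfr3 -0.40, of Spry2 -0.32, of Fgf1 -0.27, of Fgfrl1 -0.25 and of Fgfr2 -0.21. All 10 stayed negative in both fits, and the lowest edgeR adjusted p among them was 0.348 with the marrow score and 0.956 with the cartilage score. With the muscle score some differences were larger, as for Fgf2 at -1.897 against -1.779 without a score. Others were smaller, as for Fgfr1 at -0.829 against -0.841.

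**Figure D2:**
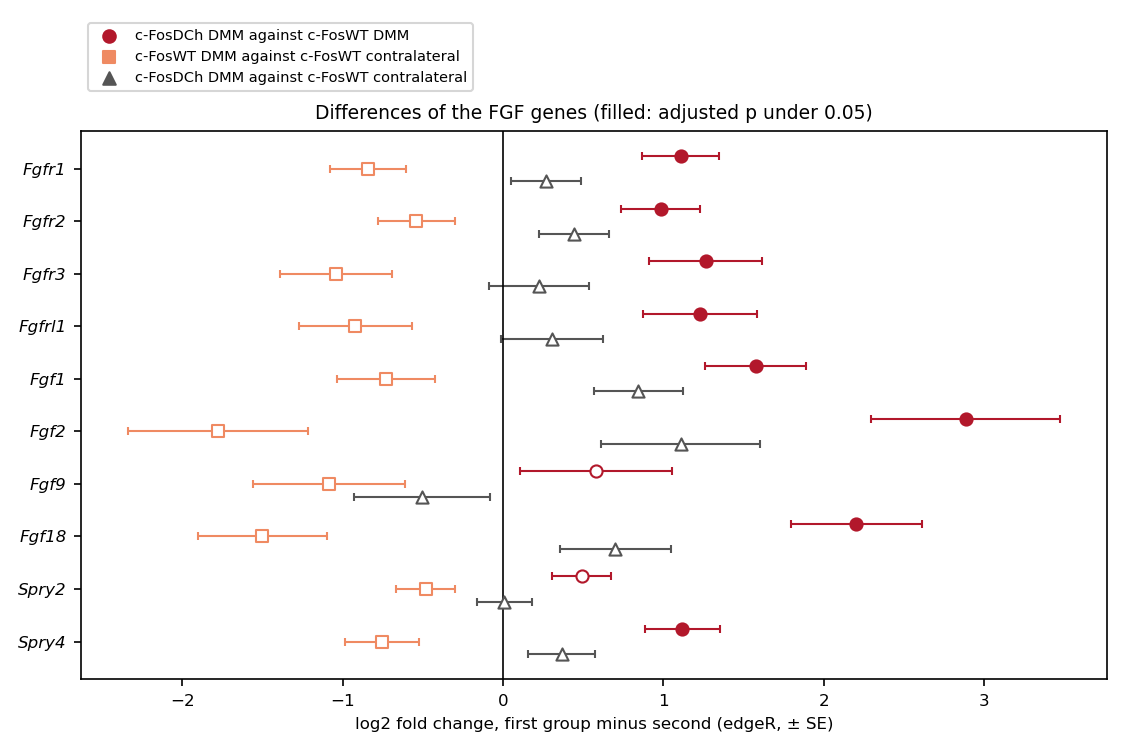
Log2 fold change (horizontal axis) of each FGF gene, first group minus second, in the 3 comparisons, with SE bars from edgeR; filled symbols passed an adjusted p under 0.05. The c-FosDCh DMM against c-FosWT DMM values are all above 0 and 8 are filled, the c-FosWT DMM against contralateral values are all below 0 and none is filled.

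Set against contralateral c-FosWT knees, c-FosDCh DMM knees differed in genotype and in surgery together. Of the 10 FGF genes 0 passed, as did 0% of all genes. The log2 differences ran from -0.51 for Fgf9 to 1.11 for Fgf2 with a median of 0.34, and 9 of the 10 were positive. Fgf2 averaged 174.9 CPM in c-FosDCh DMM and 81.2 CPM in contralateral knees, and Fgf1 averaged 54.3 CPM in c-FosDCh DMM and 30.2 CPM in contralateral knees. limma-voom and DESeq2 also called 0 of the 10, and 0 and 41 of all genes (0% and 0.226%). At an unadjusted p under 0.05 there were 2, Fgf1 (0.85 ± 0.28 log2, unadjusted p 0.0124, edgeR adjusted p 0.584) and Fgf2 (1.11 ± 0.49, unadjusted p 0.0482, edgeR adjusted p 0.584), a level that 8.34% of all genes reached. In 0 of the 10 did the groups stay apart, against 4.4% of all genes. This comparison and that between the DMM groups share the c-FosDCh DMM libraries, and the other pairs of comparisons share a group too, so their values are not independent.

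Per kilobase of exon, Fgfr1 was highest in each group, at 80.3 ± 10.03 in c-FosDCh DMM, 37.3 ± 7.79 in c-FosWT DMM and 66.7 ± 16.8 in contralateral knees (CPM per kb, SD), and its libraries did not overlap those of the next gene in any group. Fgfr2, Fgfr3 and Fgfrl1 followed, and neighbours in the order among these 3 overlapped in every group. The libraries of Fgfrl1 did not overlap those of the gene below it in c-FosWT DMM or in contralateral knees. Fgf2 ranked 5 of 10 in c-FosDCh DMM at 25.8 ± 16.2 CPM per kb, overlapping Fgfrl1 above it. It ranked 6 in c-FosWT DMM at 3.49 ± 1.82, overlapping Spry2 above it and Fgf1 below it, and 5 in contralateral knees at 12.0 ± 3.68, apart from Fgfrl1 above it. Fgf9 was lowest, at 0.82 ± 0.32, 0.55 ± 0.08 and 1.18 ± 0.68 CPM per kb in c-FosDCh DMM, c-FosWT DMM and contralateral knees. Of the ligands, Fgf2 had the highest level per kilobase in each group, and in c-FosWT DMM Fgf1 was close to it at 3.33 ± 0.94.

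Of the summed CPM per kb of Fgfr1, Fgfr2 and Fgfr3, Fgfr1 made up 54.8% in c-FosDCh DMM, 54.0% in c-FosWT DMM and 54.7% in contralateral knees. Fgfr2 made up 22.7%, 25.7% and 21%, and Fgfr3 made up 22.5%, 20.3% and 24.3% in c-FosDCh DMM, c-FosWT DMM and contralateral knees. The ratio of Fgfr1 to Fgfr3, often used as a sign of the balance of FGF signalling in articular cartilage, was taken within each library. Its log2 value was 1.76 ± 0.39 in c-FosDCh DMM, 1.89 ± 0.24 in c-FosWT DMM and 1.63 ± 0.15 in contralateral knees (CPM, SD). The groups overlapped in all 3 comparisons. The difference was -0.12 for c-FosDCh DMM minus c-FosWT DMM (exact two-sided permutation p 0.686) and 0.25 for c-FosWT DMM minus contralateral (exact p 0.171). It was 0.13 for c-FosDCh DMM minus contralateral (exact p 0.571). The tests of the 3 c-FosWT DMM libraries against 4 others cannot give a two-sided p under 0.05, so they could not have passed. Adjusted over the 3 comparisons the p-values were 0.686, 0.514 and 0.686 in that order. Within the c-FosDCh DMM group the ratio ran from 1.34 in replicate 3 to 2.203 in replicate 2, wider than in either other group.

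**Figure D3:**
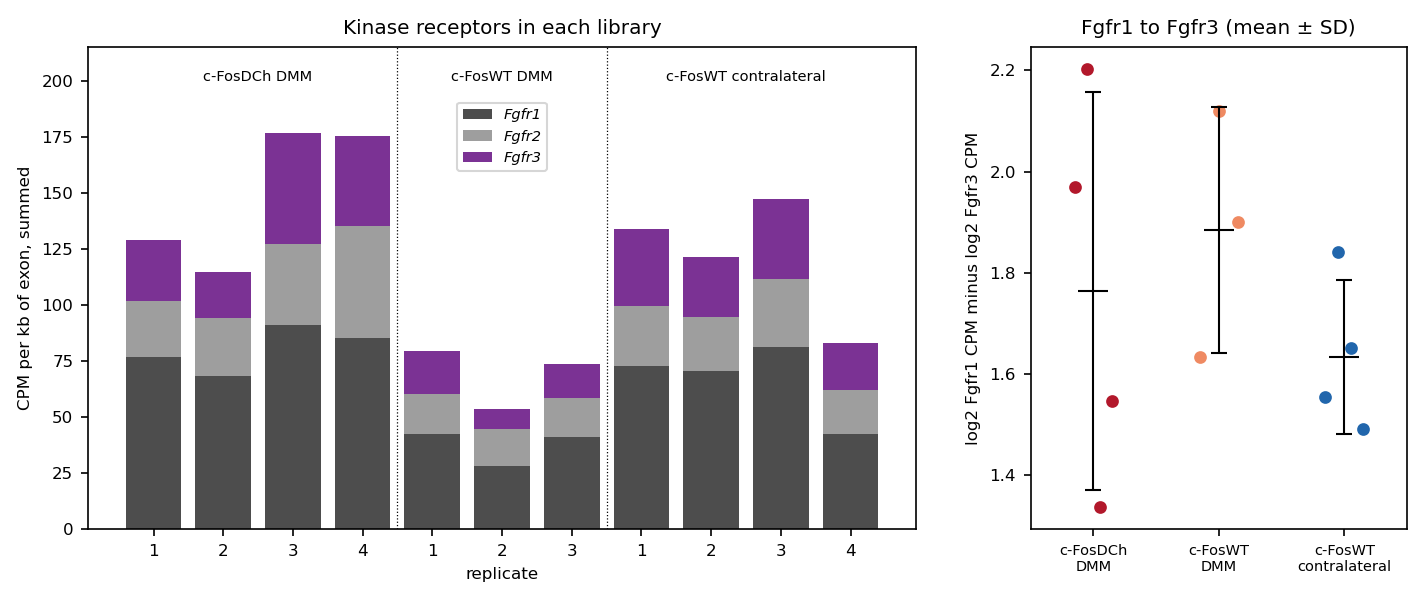
Left, CPM per kb of exon of Fgfr1, Fgfr2 and Fgfr3 stacked for each library of the 3 groups; right, log2 of Fgfr1 CPM minus log2 of Fgfr3 CPM by group, with points for libraries and bars for mean ± SD. The stacks are shortest in c-FosWT DMM, and the ratios overlap between groups.

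Apart from Fgf9 the genes varied together over the 11 libraries. The 36 pairs without Fgf9 had Pearson correlations of log2 CPM from 0.75 to 0.97 with a median of 0.86, and the 9 pairs with Fgf9 had 0.07 to 0.53. With the group means taken out, the ranges were 0.21 to 0.95 and -0.29 to 0.56. The libraries share the groups, the depth and the mix of tissues, so these values describe the libraries. Of 10398 genes with a mean log2 CPM of at least 3, the nearest to Fgfr3 over the 11 libraries were Camk4 at 0.997, Prkg1 at 0.993 and Cst3 at 0.992 (Pearson r of log2 CPM). For Fgf2 they were Ehbp1 at 0.995, Steap2 at 0.994 and Rgmb at 0.994. For Fgf18 they were Slc39a13 at 0.992, Dzip1l at 0.979 and Dlc1 at 0.978, and for Fgfr1 they were Tpbg at 0.993, Trp53i13 at 0.992 and Ptgis at 0.987.

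The FGF genes also followed the tissue scores. Over the 11 libraries, of which 6 are pairs of knees from 3 animals, Pearson's r with the marrow score ran from -0.95 for Fgfr2 to -0.03 for Fgf9, and Spearman's rho from -0.96 for Fgf2 to -0.30 for Fgf9. The permutation p passed 0.05 for 9 of the 10 by both measures after adjustment over the 20 relations computed. The permutations shuffled all 11 libraries across groups and paired knees. These p-values therefore also hold the group differences and treat paired knees as independent. For the deviations from group means given below no p was computed. For Fgfr2, r was -0.949 (permutation p 3e-05, adjusted 0.0006) and rho was -0.918 (permutation p 0.00025, adjusted 0.0012). Without c-FosDCh DMM replicates 3 and 4, the 2 libraries farthest from the median score, r ran from -0.88 to -0.69 over the 10 genes. It was -0.87 for Fgfr2 and -0.86 for Fgf9, so the departure of Fgf9 from the other genes in this relation rests on those libraries. With the cartilage score r ran from 0.06 for Fgf9 to 0.91 for Fgfr3 and rho from -0.09 to 0.86, with 8 of 10 past an adjusted permutation p of 0.05 by Pearson and 5 by Spearman. For Fgfr3, r was 0.908 (permutation p 0.00016, adjusted 0.0011) and rho was 0.855 (permutation p 0.0016, adjusted 0.0035). Without c-FosWT DMM replicates 2 and 3, r ran from -0.503 for Fgf9 to 0.766 for Fgfrl1 and was 0.736 for Fgfr3, 0.289 for Fgfr1, 0.248 for Fgf18 and 0.197 for Spry4, so for Fgfr1 and Fgf18 the relation with cartilage rests on those libraries. Taken as deviations from the group means, r with the marrow score ran from -0.935 for Fgfr2 to 0.258 for Fgf9, with -0.809 for Fgf2, -0.50 for Fgfr1 and -0.205 for Spry4. With the cartilage score it ran from -0.371 for Fgf9 to 0.844 for Fgfr3.

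**Figure D4:**
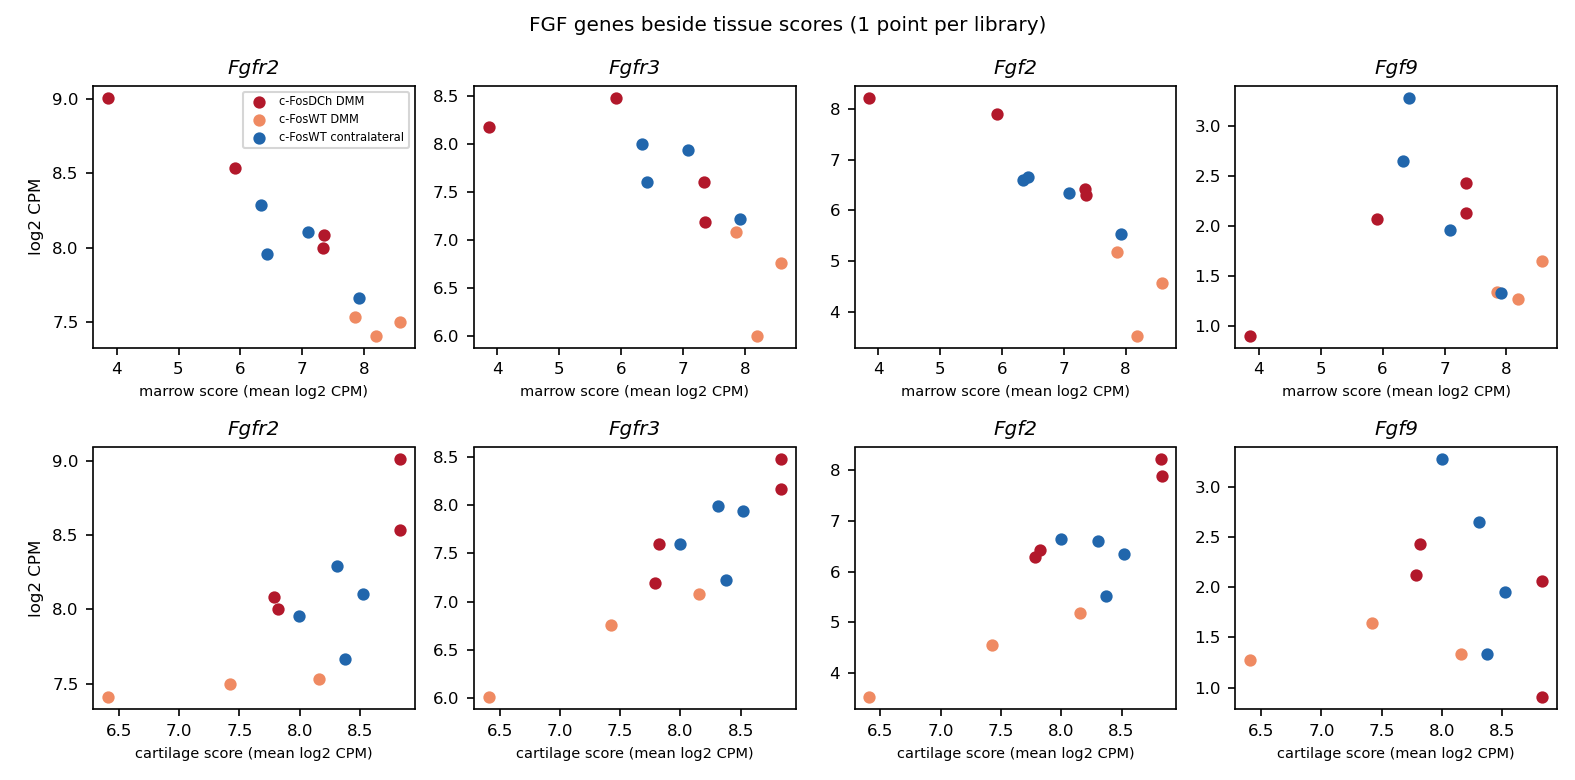
Log2 CPM of Fgfr2, Fgfr3, Fgf2 and Fgf9 (vertical axes) against the marrow score (top) and the cartilage score (bottom), both in mean log2 CPM, with 1 point for each of the 11 libraries coloured by group. Fgfr2, Fgfr3 and Fgf2 are lower where the marrow score is higher, and Fgf9 shows no such order over all libraries.

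Of 71 other FGF pathway genes listed, 53 passed the filter, and between the DMM groups 11 were higher in c-FosDCh and 0 lower, against 10.6% and 3.79% of all genes. limma-voom gave 12 higher and 3 lower, against 11.1% and 8.2% of all genes, and DESeq2 gave 17 higher and 5 lower, against 16.4% and 13.2%. Their median log2 difference was 0.11, far from the 1.17 of the 10 genes. The transcription targets came nearest, with 4 of 8 higher and a median of 1.19. Etv4 and Etv5, ETS factors that FGF signalling induces, passed: Etv5 was at 52.9, 42.3, 83.4 and 76.8 CPM in c-FosDCh DMM, against 26, 15.8 and 21.3 CPM in c-FosWT DMM (1.60 ± 0.31 log2, edgeR adjusted p 0.0332). Etv4 was at 2.56 to 6.69 CPM in c-FosDCh DMM, against 0.86 to 1.23 CPM in c-FosWT DMM (2.05 ± 0.38, edgeR adjusted p 0.0332). Ier3 and Phlda1, early response genes, differed by 1.36 and 1.76 (edgeR adjusted p 0.0332 and 0.0339). Myc and Ccnd1, growth genes on the same list, had values of -1.11 and -0.74 and did not pass (edgeR adjusted p 0.0771 and 0.146).

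Among the 11 co-receptors and related receptors tested, Sdc4, a heparan sulfate proteoglycan of the cell surface, was at 439.4, 385.3, 1027 and 1331 CPM in c-FosDCh DMM, against 251, 104.6 and 177.9 CPM in c-FosWT DMM (2.16 ± 0.51 log2, edgeR adjusted p 0.0336). Sdc1 differed by 0.50 (edgeR adjusted p 0.0378), and the other 9 did not pass. The fourth kinase receptor, Fgfr4, was at most 0.586 CPM in every library and was not tested. Of 18 other ligand genes 5 were tested. Fgf14, whose product stays inside the cell, had the smallest p and did not pass, at 0.93 CPM in c-FosDCh DMM and 0.21 CPM in c-FosWT DMM (2.12 ± 0.78 log2, edgeR adjusted p 0.0783).

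Among the adaptors and effectors, the phospholipase gene Plcg1 was higher by 0.59 and the adaptor gene Frs3 by 1.15 on the log2 scale (edgeR adjusted p 0.0477 and 0.0494), and the median of the 20 tested was 0.05. Of 9 feedback inhibitors tested beside Spry2 and Spry4, 2 were higher: Spred3 by 0.78 and Spred1 by 0.74 (edgeR adjusted p 0.0332 and 0.0347). Dusp6, the ERK phosphatase, was at 48.0, 42.9, 28.0 and 21.7 CPM in c-FosDCh DMM, against 44.6, 53.3 and 39.7 CPM in c-FosWT DMM (-0.38 ± 0.24 log2, edgeR adjusted p 0.249). Spry1, another Sprouty gene, averaged 15.6 CPM in c-FosDCh DMM and 18.6 CPM in c-FosWT DMM (-0.25 ± 0.15, edgeR adjusted p 0.221). So the feedback genes did not all have values in 1 direction. Dusp6, Spry1, Myc, Ccnd1 and Fgfr4 were chosen after their values were seen.

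In c-FosWT knees 0 of the 53 other genes passed between DMM and contralateral by edgeR or limma-voom. DESeq2 called 5, all lower in DMM, against 4.98% of all genes, 2.94% as lower. At an unadjusted p under 0.05 there were 17, with 16 lower and 1 higher, against 19.9% of all genes, 12.7% as lower. The smallest p of each list belonged to Ier3 (-1.15 ± 0.26 log2), Sdc1 (-0.45 ± 0.13), Spred1 (-0.57 ± 0.18), Ptpn11, an adaptor phosphatase (0.33 ± 0.11), and Fgf11 (-0.61 ± 0.28), with edgeR adjusted p of 0.182 to 0.259. Between c-FosDCh DMM and contralateral knees 0 passed by any of the 3 tools and 4 were at an unadjusted p under 0.05, against 8.34% of all genes. The smallest p of the ligand, receptor, feedback inhibitor and target lists belonged to Fgf14 (1.91 ± 0.69), Gpc3 (-1.09 ± 0.48), Spred3 (0.30 ± 0.16) and Etv4 (0.81 ± 0.33), with edgeR adjusted p of 0.584 to 0.602.

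**Figure D5:**
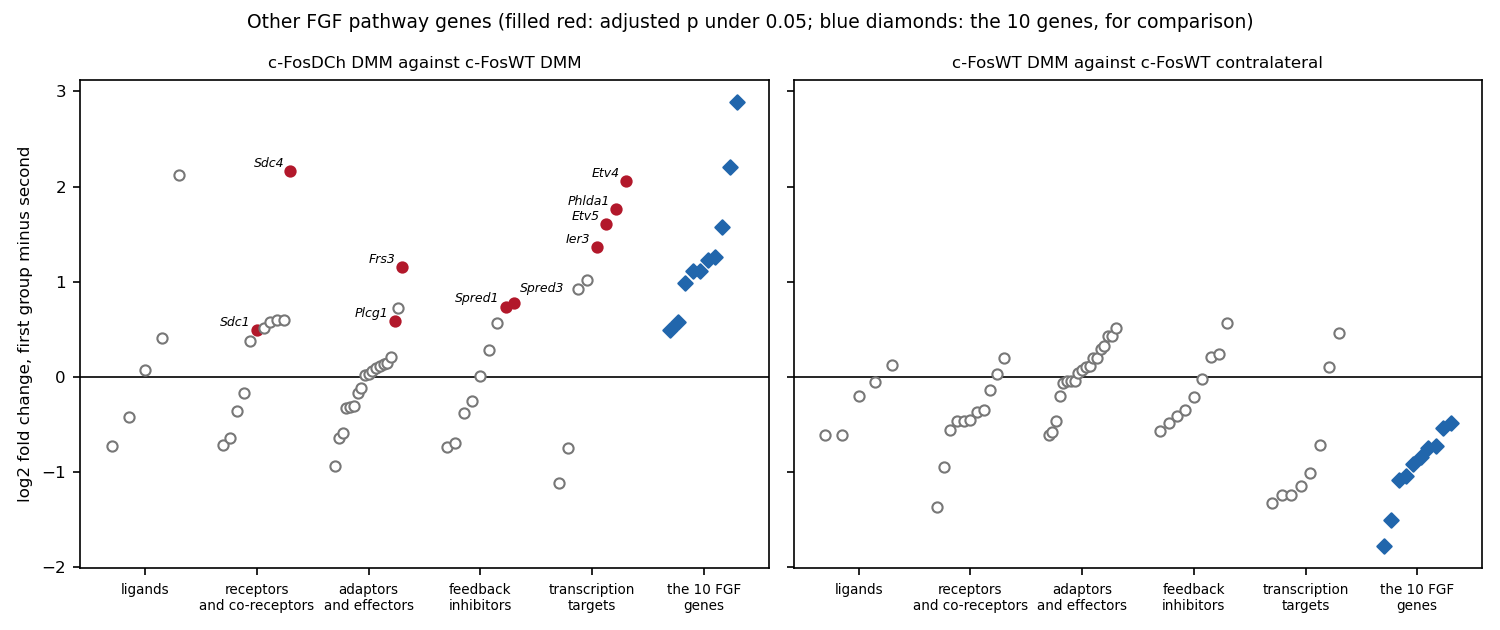
Log2 fold changes (vertical axis, first group minus second) of 52 of the other FGF pathway genes tested, by list, for c-FosDCh DMM against c-FosWT DMM (left) and c-FosWT DMM against contralateral (right); filled red points passed an adjusted p under 0.05 and blue diamonds are the 10 FGF genes for comparison. On the left 10 points are filled, all above 0; on the right none is filled.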

How the data were processed

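RNA was sequenced from 11 articular cartilage libraries. The submitters' processing notes name STAR 2.6.1a, bcl2fastq 2.19.1.403, DESeq2 1.22.2, RSEM and the build GRCm38. Each deposited file holds the raw counts of 1 library, and the strand column taken is not given in the sources used here, so reads of genes that overlap on opposite strands may be mixed. Read classes that name no gene stayed out, which left 33.08 to 43.16% of reads as gene counts. GENCODE M21 gave symbols, exon lengths and positions for 55240 of 55421 genes.

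In R 4.3.3, edgeR 4.0.16 fitted all 11 libraries at once (filterByExpr, TMM, robust glmQLFit, group as the only term) and tested 18125 genes with glmQLFTest, two-sided, at a Benjamini-Hochberg adjusted p under 0.05. The standard error is the log2 fold change over the square root of F. Log2 CPM used a prior count of 2. DESeq2 1.42.0 and limma 3.58.1 were alternatives, with other scalings, filters, sample sets and tissue scores as covariates. The fit was tested on simulated data for c-FosDCh DMM against c-FosWT DMM. It called 13 of 50 genes simulated 2-fold lower and 18 of 50 simulated 2-fold higher. At 4-fold it called 50 of 50 lower and 49 of 50 higher. Of 17925 genes simulated without a change it called 7. Permutation tests used all regroupings for the receptor ratio and 100000 permutations for correlations.

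The members and lists were chosen with earlier results of these data known. Named genes are the 10 members, per list up to 4 called genes by smallest p (otherwise the 1 with the smallest p), and the 3 genes most alike for 4 members. The values of 1 adaptor or effector gene are not reported here, though it is in the counts. Knees of the same animal are paired by the numbers in the titles (correlations of their deviations from the group means -0.17, -0.18 and 0.25). Replicate numbers of c-FosDCh DMM follow accession order, because the source labels repeat a number. Replicates 1 to 4 are labelled DMM_1, DMM_1, DMM_2 and DMM_3 there. p-values measure the spread between these samples, except those of the correlations. The latter come from shuffling all 11 libraries and also hold the differences between groups. The main fit treats the 3 pairs of knees as independent, and its groups share an estimate of the spread.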

Additional observations from a re-analysis of the deposited data

Results flagged for a closer look

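Fgf18 in c-FosDCh DMM replicate 4 stood apart from the other libraries of its group, at 9.37 CPM against 4.13, 4.75 and 4.82 CPM in the other 3. Its gap to the nearest library was 0.868 of the range of the group. It was the only one of 22 groups of 4 libraries (10 FGF genes and the receptor ratio in 2 groups) to do so, where chance gives about 1 in 20. The same library had the lowest marrow score of all 11, 3.86, and the part of that in its Fgf18 value was not tested.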

How the results depend on the processing

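Between the DMM groups, the count of FGF genes called was 8 with DESeq2 size factors, upper quartile scaling, DESeq2 or limma-voom, 7 of 8 tested at a mean CPM of at least 5, and 6 with library totals alone or no filter. It was 0 with only the 2 groups compared, with the marrow, cartilage or muscle score as a covariate, without the 2 muscle-rich libraries, or without c-FosDCh DMM replicates 3 and 4. Leaving out 1 library gave 0 to 9: 0 without c-FosDCh DMM replicate 3 or 4, c-FosWT DMM replicate 2 or 3, or contralateral replicate 1, 5 without contralateral replicate 2, 6 without c-FosWT DMM replicate 1 or contralateral replicate 3, 8 without c-FosDCh DMM replicate 1 or contralateral replicate 4, and 9 without c-FosDCh DMM replicate 2. In the fits with 0 FGF genes called, 0 of all genes passed too, and the cause was not tested. The direction stayed positive in each of these fits for each FGF gene tested. All-gene calls ranged from 0 to 5358 against 2616, and other FGF pathway calls from 0 to 22 against 11. With library totals alone, 54.5% of 2157 calls were higher, against 73.7% of 2616, and the median of all genes shifted by -0.18.

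Between c-FosWT DMM and contralateral knees the count stayed 0 except with DESeq2, which called 3. With animal as the block over the 3 pairs it was 0 (log2 difference of Fgf2 -1.71, adjusted p 0.211), and 0 for the same 6 libraries without the block, a fit added after seeing the data. The block changed no other call, and the receptor ratio differed by 0.26 within pairs (exact sign-flip p 0.25). With 3 pairs that test cannot give a lower p, so it cannot decide whether the ratio differs.

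Between c-FosDCh DMM and contralateral knees 0 passed throughout, and low values changed sign. Spry2, 0.01 as fitted, was -0.16 with library totals alone, -0.011 at a mean CPM of at least 5, -0.10, -0.003 and -0.010 with the marrow, cartilage and muscle scores, and -0.16 without c-FosDCh DMM replicates 3 and 4. Fgfr3 was -0.02 with the marrow score, and without those 2 libraries it was -0.29 and Fgfrl1 was -0.25. Leaving out 1 library gave -0.001 to 0.406 for Fgfr3 and -0.113 to 0.117 for Spry2. The receptor ratio difference ranged from -0.267 to 0.022 for c-FosDCh DMM minus c-FosWT DMM (reversed without c-FosDCh DMM replicate 3) and from -0.016 to 0.273 for c-FosDCh DMM minus contralateral (reversed without c-FosDCh DMM replicate 2). Depth limits Fgf9 and Fgf18, with as few as 22 and 16 counts in a library.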
